A study of Mus musculus with 24 samples.

Results

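Megakaryocyte and erythroid progenitors (MEP) with and without Ikaros were compared across 18193 genes on 6 Affymetrix mouse arrays, the 3 titled KO LK GFPneg and the 3 titled WT LK GFPneg, out of 24 arrays in the series. Ikaros, the product of Ikzf1, is a zinc finger DNA-binding protein of blood cells that recruits chromatin remodelling complexes such as NuRD. It is best known for its part in lymphoid development and is also made in earlier progenitors. MEP are the bone marrow cells that give rise to red cells, under Gata1 and Klf1, and to platelet-forming megakaryocytes.

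All mice carried B-p-GFP-C, a GFP transgene under control sequence of the Ikaros gene, made on a mixed C57BL/6 and C3H background, and were either wild type (WT) or null for Ikaros (KO, line I74, C57BL/6 x 129SV). The cells were LK, in the field's usage lineage-negative and Kit-positive, and GFP-negative, and the labels name them MEP. LK GFPhi (GMP, granulocyte and monocyte progenitors), LSK GFPneg-lo (HSC, stem cells) and LSK GFPhi (LMPP, lymphoid-primed multipotent progenitors) of both genotypes were the other 18 arrays, 3 per group. Sex, age and pooling of the mice are not given in the sources used here. The lines differ in strain, so Ikaros loss and strain cannot be told apart where the KO mice kept 129SV sequence. With sorted bulk cells, fewer cells of a type and less RNA per cell cannot be told apart.

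The values are log2 RMA signals, so 1 unit is a 2-fold difference. They ran from 3.33 to 14.52, and the median WT LK GFPneg level over genes was 7.27. The difference given for a gene is KO minus WT ± the standard error of the limma fit, with 3 arrays in each group. A gene rose or fell where its adjusted p, from limma with Benjamini-Hochberg adjustment over all genes, was under 0.05.

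The deleted gene was examined first. Ikzf1 (chromosome 11, 11684962 to 11772930 in GRCm38.p6) read 11.81, 11.73 and 11.99 in WT cells, and in KO cells 8.88, 7.46 and 8.85. The KO arrays lay below every WT array, by -3.45 ± 0.36 (adjusted p = 4.29e-06). A second, dim Ikzf1 probe set differed by -0.08. The KO arrays thus carried the label's direction, with signal left that was above the median gene. The relatives Ikzf2, Ikzf3 and Ikzf4, which encode Helios, Aiolos and Eos, differed by 0.04 ± 0.20, 0.04 ± 0.13 and 0.07 ± 0.16, and none was called.

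The cells carried the markers of their label in both genotypes. The mean level over the 10 measured MEP markers ranged over the WT arrays from 10.5 to 10.7, and over the KO arrays from 10.4 to 10.7, against 9.90, 7.93 and 7.85 in WT LSK GFPneg-lo, LSK GFPhi and LK GFPhi. In WT cells, 6 of the 10 were highest in LK GFPneg, and Itga2b, Pf4, Gp1bb and Gp9, all megakaryocyte genes, were not. The mean over 8 markers of granulocyte and monocyte progenitors was 7.19 to 7.75 on WT and 7.01 to 7.59 on KO arrays, against 11.9 in WT LK GFPhi. The mean over 6 stem cell markers was 7.05 to 7.11 on WT and 7.15 to 7.29 on KO arrays, against 10.7 in WT LSK GFPneg-lo. Of the markers measured over 12 cell types, 1 was called, the basophil protease gene Mcpt8.

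Arrays of a group correlated at r = 0.980 to 0.994 over genes. The Y-linked gene Eif2s3y read 10.40, 8.10 and 10.22 in WT, and in KO 4.08, 8.33 and 4.14, and Xist, the X inactivation RNA, read 11.98 to 13.15 on all 6. Both arrays numbered 2 were alike in Eif2s3y, and the other pairs were not. The genes were called with these same arrays, so the sign of a pair is no separate check of sex. The median difference of the rises was 1.08, 0.83 and 1.05 in pairs 1, 2 and 3, and that of the falls was -0.94, -0.91 and -0.998. With Eif2s3y level as a covariate, 209 genes were called in place of 483, and 202 of the 483 kept their call. Apart from that fit, the part of sex was not tested.

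Loss of Ikaros went with changes in 483 of 18193 genes (2.65%): 219 rose (1.2%) and 264 fell (1.45%), with 116 (0.638%) and 121 (0.665%) of them at least 2-fold. At an unadjusted p under 0.05 there were 1851. The median over all genes was 0.04. The groups did not overlap, with KO above WT, for 8.26% of all genes and, with KO below WT, for 5.61%. Arrays of the same number deviated together, and with the number as a replicate block 888 genes were called, among them all 483. In a fit of the 6 arrays alone 216 were called, 198 of them among the 483. Without WT replicate 1 or WT replicate 3 the counts were 320 and 293.

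**Figure D1:**
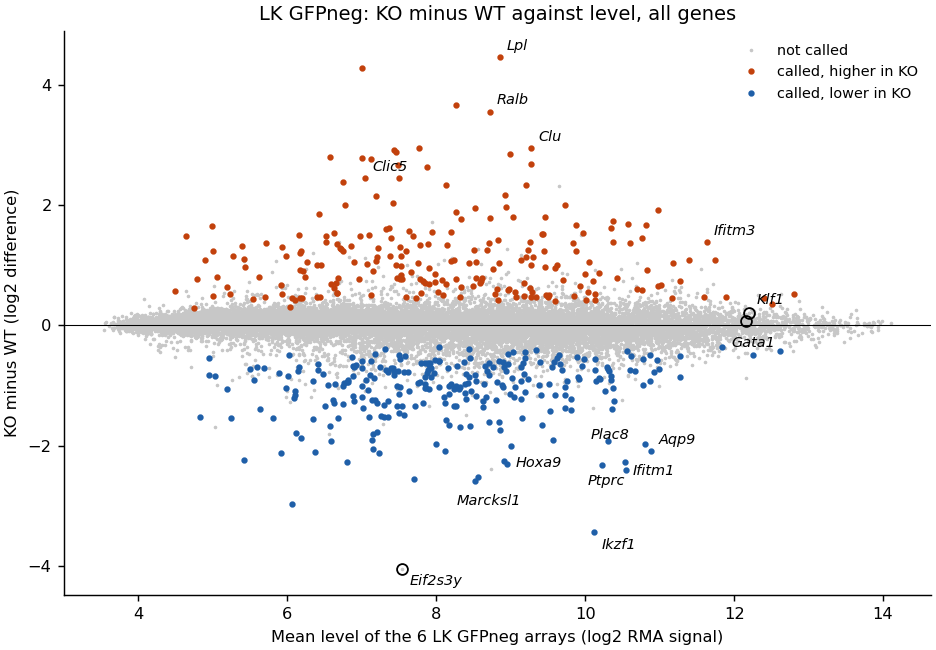
KO minus WT (log2 difference, vertical axis) against the mean level of the 6 LK GFPneg arrays (log2 RMA signal, horizontal axis), with 1 point per gene. The 219 rises and 264 falls, in colour, lie at all levels; Gata1 and Klf1, circled near the line at 0, are among the brightest genes, and Eif2s3y, circled at -4.06, is not called.

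The 12 largest rises, clone transcripts left out, ran from Lpl at 4.47 to Ehd3 at 2.70. Lpl, lipoprotein lipase, which releases fatty acids from circulating triglyceride, read 6.66, 6.71 and 6.48 in WT and 11.41, 10.38 and 11.47 in KO cells. Its rise was the largest of any gene called, 4.47 ± 0.40 (adjusted p = 5.25e-07). Ralb, a small GTPase of vesicle traffic, read 6.78, 7.12 and 6.91 in WT and 9.99, 10.59 and 10.91 in KO cells, a rise of 3.56 ± 0.22. For both genes every KO array lay well above every WT array, and the WT arrays stayed near or below the median gene's level. Over the fits tried Ralb stayed called, with values from 1.66 to 3.81. Clu, the extracellular chaperone clusterin, read 7.75, 7.77 and 7.87 in WT and 10.96, 10.78 and 10.51 in KO cells, a rise of 2.95 ± 0.21, and all 4 of its probe sets were higher in KO cells by 2.15 to 5.17.

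Bace1, a membrane protease that cuts the amyloid precursor protein, rose by 2.92 ± 0.30 from 5.81, 6.61 and 5.52 to 8.82, 9.25 and 8.62. Its other 3 probe sets differed by 0.05, 0.14 and 0.9997. Ltbp1, which binds latent TGF-beta in the matrix, rose by 2.89 ± 0.18 from 5.93 to 6.16 in WT to 8.40 to 9.45 in KO cells. Its value ran from 1.42 to 3.26 over the fits tried. Plek2, a pleckstrin family protein known for actin organisation in erythroid cells, read 5.09, 5.34 and 5.07 in WT and 7.65, 7.64 and 8.64 in KO cells and rose by 2.81 ± 0.19 (adjusted p = 1.72e-08). In WT cells these genes thus read in the lower part of the array's range, and in KO cells above the median gene.

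Gstm2, a glutathione transferase, read 5.74, 5.63 and 5.42 in WT and 8.50, 8.05 and 8.63 in KO cells and rose by 2.80 ± 0.16. Ehd3, an endosome protein, rose by 2.70 ± 0.28, with WT arrays at 7.65 to 8.16 and KO arrays at 10.49 to 10.82. Sh3d19, an adaptor protein of membrane proteases, rose by 2.77 ± 0.22, and its other 3 probe sets differed by 0.13 to 0.59. These 3 genes had groups that stood well apart.

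Ccnb1ip1, a ubiquitin ligase of meiotic recombination, rose by 3.66 ± 0.58, but WT replicate 2 (8.55) lay far above the other WT arrays (5.43 and 5.32), and with the 6 arrays alone its adjusted p was 0.116. Podxl, the sialomucin podocalyxin, rose by 2.85 ± 0.43, with an adjusted p of 0.0608 in the 6 arrays alone, and its second probe set differed by 0.02. Trgv4, a T cell receptor gamma variable segment, rose by 2.96 ± 0.49 from 6.47, 5.95 and 6.43 to 8.31, 9.22 and 10.20. Markers of T cells did not move with it: Cd3e and Cd3d differed by 0.00 and 0.12. None of the 19 T and NK genes measured was called, against 2.65% of all genes.

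**Figure D2:**
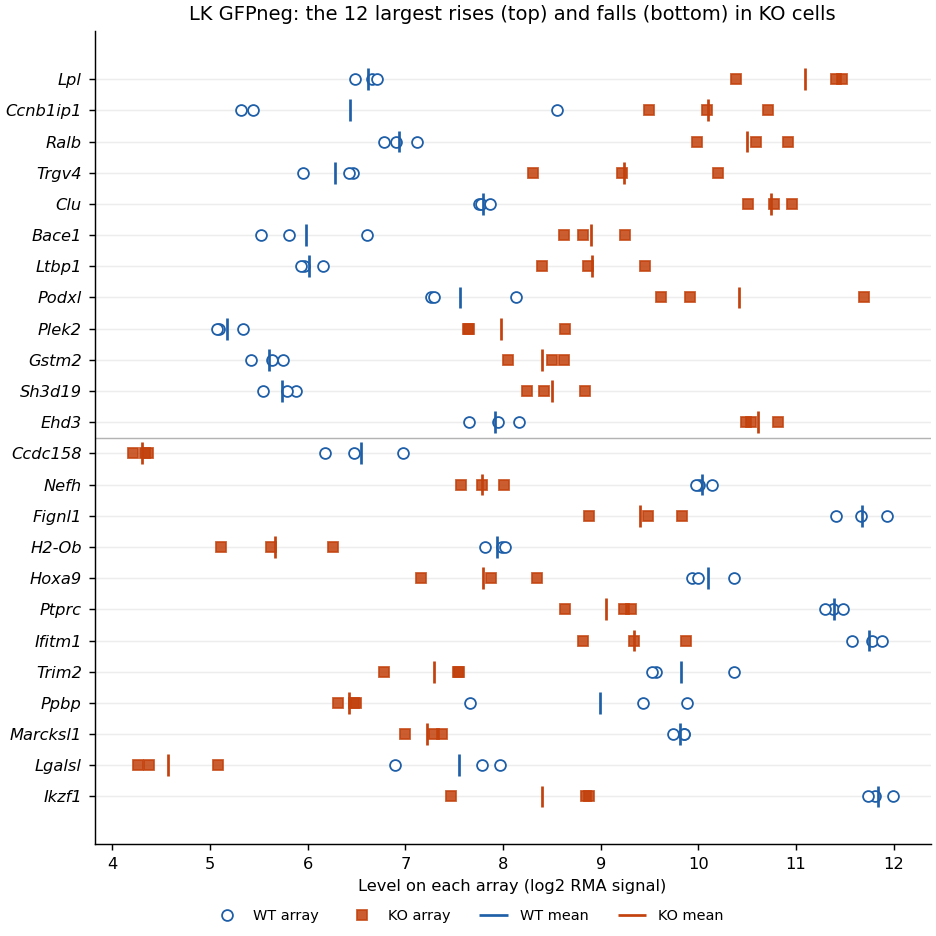
Level on each array (log2 RMA signal, horizontal axis) of the 12 largest rises and the 12 largest falls among named genes; open circles are the 3 WT arrays, squares the 3 KO arrays and vertical ticks the group means. The groups are apart for all 24 genes, most narrowly for Ccnb1ip1, where WT replicate 2 reads 8.55 and the lowest KO array 9.49.

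The largest falls after Ikzf1 included genes of the leukocyte surface and 1 Hox gene. Ptprc, which encodes CD45, the receptor phosphatase of white cells, read 11.38, 11.29 and 11.48 in WT and 8.63, 9.31 and 9.24 in KO cells, a fall of -2.32 ± 0.19 (adjusted p = 2.46e-07). Ifitm1, an interferon-induced membrane protein, read 11.78, 11.57 and 11.88 in WT and 8.81, 9.34 and 9.88 in KO cells and fell by 2.40 ± 0.21. Hoxa9, a homeobox transcription factor of stem and progenitor cells, read 9.93, 9.99 and 10.36 in WT and 7.16, 7.87 and 8.35 in KO cells and fell by 2.30 ± 0.21. All 3 genes were well expressed in WT MEP and fell on every KO array.

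Marcksl1, a substrate of protein kinase C that binds actin, fell by 2.59 ± 0.20 from 9.85, 9.86 and 9.74 to 6.99, 7.29 and 7.38, and its other 3 probe sets differed by -1.51 to -1.64. H2-Ob, a chain of the MHC class II chaperone H2-O, fell by 2.28 ± 0.25 from 7.98, 7.82 and 8.02 to 5.11, 6.26 and 5.63. Trim2, a ubiquitin ligase, fell by 2.53 ± 0.32, and Ccdc158, a coiled-coil protein, by 2.24 ± 0.30. The value of Trim2 ran from -2.92 to -0.99 over the fits tried. The second Hoxa9 probe set differed by 0.01, so the fall of Hoxa9 rests on 1 of its 2 probe sets.

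Ppbp, the platelet chemokine, fell by 2.56 ± 0.59 (adjusted p = 0.0195). WT replicate 1 (7.66) lay below the other WT arrays (9.43 and 9.88) and the KO arrays read 6.31 to 6.5. Its adjusted p was 0.075 in the 6 arrays alone and 0.0537 to 0.141 when WT replicate 2 or 3 or any of the KO replicates was left out.

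The other named falls lie on chromosome 11 near Ikzf1. Lgalsl, a galectin-related gene, fell by 2.98 ± 0.30 from 6.90, 7.97 and 7.79 to 4.26, 4.38 and 5.08. Nefh, a neurofilament gene, fell by 2.25 ± 0.18 from 9.97 to 10.14 in WT to 7.57 to 8.01 in KO cells. Fignl1, a DNA repair ATPase next to Ikzf1, fell by 2.27 ± 0.31, but its second probe set was higher in KO cells by 0.50 with groups that did not overlap. Of 128 genes measured within 10 Mb of Ikzf1, 1 rose and 8 fell, or 7.03% against 2.65% of all genes. The rise was a clone transcript, 1700042O10Rik (4.29 ± 0.37), and the falls also held Plek, Meis1, Pik3ip1, Sec14l2 and LOC102631979. Ikaros loss and 129SV sequence kept around the deleted gene cannot be told apart for these 9 genes.

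Promoter windows are shown for 6 genes whose KO effect in MEP differed from that in each other population, so that the letters near their start sites can be read beside the values. They run from 250 bases before to 50 after the RefSeq start site (GRCm38.p6), on the gene's strand. Capitals mark TGGGAA or its reverse complement TTCCCA, which holds the GGGAA core bound by Ikaros, and GATAAG or CTTATC, the Gata type of motif; these do not overlap each other. The windows are Plek2 (chr12:78906889-78907188, minus strand), Ralb (chr1:119504733-119505032, minus), Clic5 (chr17:44188322-44188621, plus), Hoxa9 (chr6:52227321-52227620, minus), Ifitm1 (chr7:140967826-140968125, plus) and, for Ptprc, the start with a match (chr1:138175077-138175376, minus).
Plek2: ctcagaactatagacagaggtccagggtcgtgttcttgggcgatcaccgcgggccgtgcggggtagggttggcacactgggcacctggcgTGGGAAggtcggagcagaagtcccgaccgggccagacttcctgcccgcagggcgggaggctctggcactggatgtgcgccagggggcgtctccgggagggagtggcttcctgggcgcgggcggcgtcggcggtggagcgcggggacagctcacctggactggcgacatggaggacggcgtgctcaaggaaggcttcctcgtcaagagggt
Ralb: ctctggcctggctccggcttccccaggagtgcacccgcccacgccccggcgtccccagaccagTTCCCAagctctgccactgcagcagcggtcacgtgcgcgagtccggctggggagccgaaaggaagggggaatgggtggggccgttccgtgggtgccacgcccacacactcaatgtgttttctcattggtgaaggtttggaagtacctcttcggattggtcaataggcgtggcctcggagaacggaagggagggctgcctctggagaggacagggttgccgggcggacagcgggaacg
Clic5: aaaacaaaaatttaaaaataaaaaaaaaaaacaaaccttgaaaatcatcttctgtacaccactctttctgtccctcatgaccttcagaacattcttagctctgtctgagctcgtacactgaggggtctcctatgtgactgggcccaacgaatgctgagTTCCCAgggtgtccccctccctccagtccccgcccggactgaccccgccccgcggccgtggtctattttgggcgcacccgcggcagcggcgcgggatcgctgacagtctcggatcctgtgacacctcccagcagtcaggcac
Hoxa9: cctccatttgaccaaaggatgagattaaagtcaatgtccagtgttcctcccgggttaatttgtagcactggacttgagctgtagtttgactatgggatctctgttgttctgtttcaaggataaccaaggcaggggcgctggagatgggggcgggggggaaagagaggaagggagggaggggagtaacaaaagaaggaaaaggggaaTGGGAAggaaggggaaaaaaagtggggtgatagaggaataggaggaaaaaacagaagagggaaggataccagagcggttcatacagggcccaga
Ifitm1: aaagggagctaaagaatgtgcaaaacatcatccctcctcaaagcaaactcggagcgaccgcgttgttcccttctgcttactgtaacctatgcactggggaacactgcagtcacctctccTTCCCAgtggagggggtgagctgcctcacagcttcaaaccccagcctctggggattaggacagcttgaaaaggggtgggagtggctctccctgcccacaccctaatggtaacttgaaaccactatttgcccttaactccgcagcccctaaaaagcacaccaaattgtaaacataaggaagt
Ptprc: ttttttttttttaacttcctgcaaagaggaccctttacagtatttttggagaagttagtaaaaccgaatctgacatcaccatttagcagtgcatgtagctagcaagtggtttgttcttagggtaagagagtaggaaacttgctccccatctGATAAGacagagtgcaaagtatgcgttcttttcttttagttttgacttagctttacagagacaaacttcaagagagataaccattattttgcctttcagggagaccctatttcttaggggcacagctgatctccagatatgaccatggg

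The Ikaros-core letters began at -160 in Plek2, -187 in Ralb, -92 in Clic5, -44 in Hoxa9 and -131 in Ifitm1, counted from the start site, and the Gata letters at -99 in Ptprc. Such matches were common: 25.6% of all 32851 promoter windows in the table and 24.2% of the 18109 windows of genes tested held TGGGAA on either strand. Of 225 windows of genes that rose 33.3% held it, and of 303 windows of genes that fell 20.1%. GATAAG was in 7.44% of all windows, 5.78% of those of the rises and 6.27% of those of the falls. The 6 genes were picked with their matches in view, and a match describes the letters only.

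The gene lists below were chosen with earlier results of these data known, so their shares of called genes describe the lists and test nothing. Of 19 transcription factors of erythroid and megakaryocyte cells measured, 0 rose and 1 fell (5.26% called, against 2.65% of all genes). Their median was 0.03 (0.04 over all genes). Gata1, the central factor of both lineages, read 12.22, 12.13 and 12.01 in WT and 12.17, 12.26 and 12.13 in KO cells, 0.07 ± 0.45. Klf1, the erythroid activator, read 12.15, 12.16 and 11.998 in WT and 12.54, 12.20 and 12.19 in KO cells, 0.20 ± 0.36. The groups overlapped for Gata1, which read 12.01 to 12.26 on the 6 arrays. For Klf1 they did not, with the lowest KO array at 12.19 and the highest WT array at 12.16. The standard errors come from the fit to all groups of the series, so they also hold the spread of the other populations. They leave room for differences in Gata1 and Klf1 that this fit could not call. Tal1, their partner, differed by 0.21 ± 0.20 and Fli1, a megakaryocyte factor, by -0.12 ± 0.56. Gata2, a stem and early progenitor factor that Gata1 replaces, read 11.38, 11.19 and 11.37 in WT and 10.75, 10.81 and 10.06 in KO cells and fell by 0.77 ± 0.18 (adjusted p = 0.0209). That call was lost in the 6 arrays alone (adjusted p = 0.199), with the Eif2s3y covariate (0.438), with a further quantile normalization (0.0726), and without WT replicate 1, WT replicate 3 or KO replicate 3 (0.0926, 0.0935 and 0.117).

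Among 25 erythroid receptor and membrane genes, 1 rose and 2 fell (12% called, against 2.65% of all genes), with a median of -0.02. Epor, the erythropoietin receptor, differed by 0.04 ± 0.15, the transferrin receptor gene Tfrc by -0.17 ± 0.22, and the carbonic anhydrases Car1 and Car2 by -0.28 ± 0.48 and -0.09 ± 0.34. Aqp9, a channel for glycerol and water, read 12.01, 11.83 and 11.95 in WT and 9.86, 9.34 and 10.33 in KO cells and fell by 2.09 ± 0.30 (adjusted p = 0.000193). Trim10, an erythroid ubiquitin ligase, fell by 1.14 ± 0.19 from 8.40 to 8.99 in WT to 7.18 to 8.01 in KO cells, with an adjusted p of 0.0942 in the 6 arrays alone. Cited4, a transcription co-regulator, rose by 1.03 ± 0.27 (adjusted p = 0.0475). Without WT replicate 1, which read 6.97 against 8.49 and 8.33, its value was 0.55 and the call was lost (adjusted p = 0.228). In all, 8 alternatives ended the call of Cited4, among them the 6 arrays alone (adjusted p = 0.473) and the Eif2s3y covariate (0.345).

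None of 16 genes of heme synthesis and iron was called, against 2.65% of all genes, and their median was 0.10. Alas2, the erythroid form of the first enzyme of heme synthesis, read 5.17, 5.48 and 5.56 in WT and 5.75, 5.93 and 5.90 in KO cells, 0.46 ± 0.16. With the replicate block its adjusted p was 0.021 in place of 0.189. The 6 globin genes measured read low, with mean levels of 5.83 to 6.05 on the 6 arrays, and none was called. The list of 10 also held Hbb-bt, Hbb-bs, Hbb-b1 and Ahsp, which were not measured here. The values therefore do not show the level or the change of those genes.

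Megakaryocyte and platelet genes held 6 falls and no rise: of 27 measured, 0 rose and 6 fell (22.2% against 2.65% of all genes), while the median was -0.04. This list too was chosen with earlier results of these data known, so its share is no test of the list. Plek, the platelet protein pleckstrin, fell by 2.09 ± 0.35 from 8.71, 8.97 and 9.83 to 7.27, 6.79 and 7.17. Mmrn1, multimerin of platelet granules, fell by 1.80 ± 0.29 from 7.84, 8.11 and 8.20 to 6.69, 6.13 and 5.92. Its value ran from -2.03 to -0.915 over the fits tried. Rgs18, a brake on G protein signals in platelets, fell by 1.23 ± 0.18 from 10.17 to 10.72 in WT to 9.10 to 9.30 in KO cells. Cd9, a tetraspanin, fell by 1.34 ± 0.24, and the remaining falls were Ppbp and Itgb3.

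Other genes of the lineage missed the threshold. Pf4, platelet factor 4, differed by -0.84 ± 0.54, Gp5 by -0.80 ± 0.23, Gp9 by -0.23 ± 0.31 and Itga2b, the alpha chain of the platelet integrin, by 0.47 ± 0.24. Vwf, von Willebrand factor, and Tubb1, the platelet tubulin, were higher by 1.27 ± 0.52 and 1.09 ± 0.33 and missed the threshold (adjusted p = 0.349 and 0.0974). With the replicate block Gp5 and Tubb1 were called as well, which gave 7 falls and 1 rise in the list. In the 6 arrays alone 3 falls remained. Plek was not called when all its probe sets were averaged (-1.02, adjusted p = 0.0617).

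Of 19 integrins, 3 fell and 0 rose (15.8% called, against 2.65% of all genes). Itga6, a laminin receptor chain, fell by 0.98 ± 0.19 from 10.20, 9.71 and 10.10 to 8.69, 8.98 and 9.41. Itgb3, the partner of Itga2b, fell by 1.06 ± 0.22, and Itgb2, the beta chain of leukocyte integrins, by 1.29 ± 0.32. In the 6 arrays alone 1 integrin was called, and with the Eif2s3y covariate 1; Itgb3 also lost its call without WT replicate 2, WT replicate 3 or KO replicate 2 (adjusted p = 0.0569, 0.0827 and 0.0616) and Itgb2 without WT replicate 1 or 3 or KO replicate 1 or 2 (0.104 to 0.149).

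Stem cell genes had the lowest median of the lists of blood cell types, -0.30. Of 23 measured, 0 rose and 3 fell (13.04% called, against 2.65% of all genes): Gata2, Mycn and Meis1. Mycn, a Myc family factor, fell by 1.52 ± 0.36 from 8.01, 7.98 and 8.18 to 6.52, 6.72 and 6.38, but its other 2 probe sets differed by 0.13 and 0.14. Meis1, a Hox partner protein, fell by 1.23 ± 0.30. With the replicate block 7 fell and 1 rose, and the gains were Kit, Cd34, Angpt1, Pdzk1ip1 and Hoxb5. Kit, the stem cell factor receptor by which these cells were sorted, read 12.59, 12.31 and 12.90 in WT and 12.11, 11.19 and 11.86 in KO cells, -0.88 ± 0.38, with an adjusted p of 0.394 without and 0.0356 with the block. None of the 3 falls kept its call with the Eif2s3y covariate (adjusted p = 0.438 for Gata2, 0.184 for Mycn and 0.0507 for Meis1), and Mycn and Meis1 lost theirs in 5 of the 6 fits that left out 1 array.

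Of 17 Hox genes, Hoxa9 alone was called (5.88%, against 2.65% of all genes). Its neighbours in the cluster Hoxa7 and Hoxa10 differed by -0.04 and -0.14, and the median was -0.02.

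Genes of other lineages were mostly uncalled, and so were genes in general, of which 2.65% were called. Of 21 genes of granulocyte and monocyte progenitors, 0 rose and 1 fell (4.76% called). This was Plac8, a small cysteine-rich protein of myeloid cells, which read 11.92, 11.59 and 11.86 in WT and 9.21, 10.13 and 10.11 in KO cells, -1.98 ± 0.16 (adjusted p = 2.25e-07). The granule gene Mpo, myeloperoxidase, read 9.47, 8.13 and 9.83 in WT and 7.5, 8.63 and 8.32 in KO cells, with groups that overlapped; without WT replicate 2 it was called, at -1.50. None of 18 early lymphoid, 16 B lineage, 13 neutrophil, 11 dendritic or 9 plasma cell genes was called, which is near the share over all genes. Flt3 and Il7r, receptors of lymphoid progenitors, differed by 0.10 ± 0.29 and 0.03 ± 0.26. Of 10 MHC class II genes, H2-Ob alone fell (10% called).

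Single genes of other lists rose, where 1.2% of all genes did. Apoe, apolipoprotein E, read 9.28, 10.40 and 10.38 in WT and 12.35, 11.71 and 11.75 in KO cells and rose by 1.91 ± 0.38; it is in the macrophage list, whose other 17 members were not called, among them C1qa (0.21) and Adgre1 (0.04). Without WT replicate 1 its adjusted p was 0.0508. Mcpt8 rose by 1.05 ± 0.26 while the other 13 mast and basophil genes were not called, Cpa3 among them at -0.67; 8 alternatives ended this call. Cdh5, the cadherin of endothelium, rose by 0.53 ± 0.13 at a level of 4.84 to 5.80, below the array's median, and lost its call in the 6 arrays alone (adjusted p = 0.26). Other endothelial genes were not called, with Pecam1 at -0.01 and Kdr at 0.17.

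Of 30 proliferation genes 0 were called by limma, against 2.65% of all genes, and their median was 0.03. Mki67, the division marker, read 12.70 to 13.11 in WT and 12.47 to 13.16 in KO cells. Cdkn2c, an inhibitor of the Cdk4 and Cdk6 kinases, fell by 1.15 ± 0.20 from 10.50, 10.16 and 10.24 to 9.14, 9.28 and 9.01. It was the 1 call among 12 genes of its list (8.33%). Pmaip1, the death-promoting protein Noxa, rose by 1.31 ± 0.27 from 5.13, 5.29 and 5.40 to 6.69, 6.22 and 6.84, the 1 call among 13 apoptosis genes (7.69%). With the Eif2s3y covariate neither Cdkn2c (adjusted p = 0.0668) nor Pmaip1 (0.266) was called.

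Among cytokine receptors and their signalling genes, 1 of 20 rose and 1 fell (10% called, against 2.65% of all genes). Ifngr1, a chain of the interferon gamma receptor, fell by 0.92 ± 0.16 from 11.42, 11.20 and 11.38 to 10.56, 10.53 and 10.16. Socs3, an inhibitor of cytokine signals, rose by 1.32 ± 0.35 (adjusted p = 0.0474) on 1 dim probe set, and the brighter of its other probe sets, on these arrays, differed by -0.01.

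Interferon response genes had a median of -0.21. Of 20 measured, 3 fell and 1 rose (20% against 2.65% of all genes). Ifit1 and Oasl1, induced by interferon, fell by 1.21 ± 0.30 and 0.73 ± 0.17. Rtp4, also induced by it, differed by -0.9989 ± 0.26 (adjusted p = 0.0382). All 3 lost their calls in the 6 arrays alone and with the Eif2s3y covariate. Ifitm3 went the other way: it read 10.75, 11.03 and 11.04 in WT and 12.34, 12.31 and 12.33 in KO cells and rose by 1.39 ± 0.14 (adjusted p = 3.25e-06), whereas its relative Ifitm1 fell.

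Of 23 genes of the Ikaros family and NuRD, Ikzf1 and Chd3 fell (8.70% called, against 2.65% of all genes). Chd3, a remodelling ATPase of NuRD, fell by 1.29 ± 0.25 from 7.54, 8.22 and 7.76 to 6.57, 6.34 and 6.75, while the related Chd4 differed by 0.05. Of 19 glutathione transferases, Gstm2 and Gstt1 (1.16 ± 0.23) rose (10.5% called). None of 14 Notch genes, 22 immediate early genes or 6 eosinophil genes was called.

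**Figure D3:**
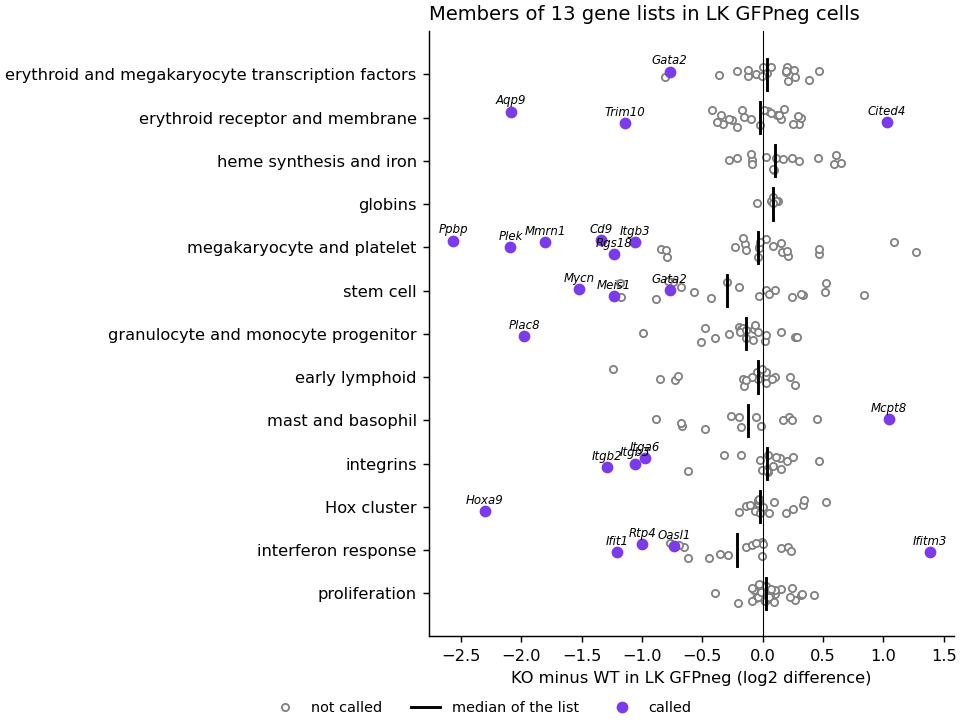
KO minus WT in LK GFPneg (log2 difference, horizontal axis) of each measured member of 13 gene lists, with 1 point per gene; filled points were called and are named, and black bars are list medians. The filled points of the megakaryocyte and platelet list all lie left of 0 while its median is -0.04, and the proliferation list has none.

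The KO effect in MEP was then set beside that in the other populations, which share no arrays with it, although arrays of the same number may share mice. In the same fit 389 genes were called in LSK GFPneg-lo (2.14%), 837 in LSK GFPhi (4.6%) and 1740 in LK GFPhi (9.56%). The shares of all genes that rose and fell were 1.26% and 0.879% in LSK GFPneg-lo, 2.91% and 1.69% in LSK GFPhi and 5.78% and 3.79% in LK GFPhi. Of the 219 rises in MEP, 64 also rose in LSK GFPneg-lo (29.2% of the 219 and 27.9% of the rises there), 86 in LSK GFPhi (39.3% and 16.2%) and 85 in LK GFPhi (38.8% and 8.09%). Of the 264 falls, 38 also fell in LSK GFPneg-lo (14.4% and 23.8%), 50 in LSK GFPhi (18.9% and 16.3%) and 58 in LK GFPhi (21.97% and 8.42%). All 3 other populations shared 42 of the rises and 17 of the falls, and 106 rises and 178 falls were called in the same direction in none of them. Some were called in the opposite direction: 0, 2 and 5 of the rises and 4, 15 and 19 of the falls in LSK GFPneg-lo, LSK GFPhi and LK GFPhi. Strain differs with genotype in every population, so it cannot be told apart from Ikaros loss for the shared genes either. The median difference of 4 sex-linked genes was -1.22 in MEP and -1.56, -1.48 and -1.40 in LSK GFPneg-lo, LSK GFPhi and LK GFPhi, with none called. In MEP they ran from -4.06 for the Y-linked Eif2s3y to 0.41 for Xist, so the median does not show the size of either. The part of sex in the shared genes was not tested.

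Clu, Gstm2, Sh3d19 and Ehd3 were among the shared rises. Clu rose by 3.10, 2.77 and 3.32 in LSK GFPneg-lo, LSK GFPhi and LK GFPhi, and Gstm2 by 3.52, 3.45 and 3.0, close to their values in MEP. H2-Ob and Cdkn2c fell in all 4 populations.

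A difference between populations was tested for each gene as an interaction, the KO effect in MEP minus that in the other population. It was called for 454 genes against LK GFPhi (2.5%), 147 against LSK GFPneg-lo (0.808%) and 359 against LSK GFPhi (1.97%). In each, effects lower in MEP were the more frequent, with 310 (1.7%), 89 (0.489%) and 240 (1.32%) lower and 144 (0.792%), 58 (0.319%) and 119 (0.654%) higher. With each array centred on its median the imbalance shrank: 211 were higher and 253 lower against LK GFPhi, 78 and 83 against LSK GFPneg-lo, and 133 and 224 against LSK GFPhi. That centring also moved the median interaction over all genes, in the same order, from -0.03, 0.01 and 0.02 to 0.08, 0.03 and 0.05. With a further quantile normalization the imbalance stayed, with 152 higher and 281 lower, 53 and 83, and 126 and 235. With the replicate block 907 were called against LK GFPhi and 307 against LSK GFPneg-lo. In all 3 interactions the effect in MEP was called higher for 22 of the 219 rises and lower for 42 of the 264 falls; the arrays that made these calls also enter the interactions, so the counts are not independent of them.

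Among the 12 largest rises, Lpl, Ralb, Bace1, Ltbp1 and Plek2 differed from all 3 populations. Of these, Ralb also rose in all 3 and Ltbp1 in 1 of them, each by less than in MEP. Bace1 rose in MEP by 2.92 and differed by -0.02, 0.10 and -0.07 in LSK GFPneg-lo, LSK GFPhi and LK GFPhi, and Plek2 by 2.81 against 0.57, 0.15 and 0.18. Lpl was higher by 4.47 in MEP, by 1.96 and 1.76 in the LSK populations, where it also rose, and by 0.52 in LK GFPhi. Clic5, a chloride channel family protein, was of opposite sign: it read 5.76, 5.76 and 5.95 in WT MEP and 7.97, 8.51 and 8.33 in KO MEP, a rise of 2.45 ± 0.17, and fell by 0.81 in LSK GFPhi and 0.63 in LK GFPhi. In MEP its value ran from 1.30 to 2.63 over the fits tried.

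Among the 12 largest falls, Lgalsl, Marcksl1, Ifitm1, Ptprc, Hoxa9 and Nefh differed from all 3 populations. Marcksl1 and Nefh each also fell in 1 other population, by less than in MEP. Ptprc fell by 2.32 in MEP and differed by -0.14, -0.28 and -0.46 in LSK GFPneg-lo, LSK GFPhi and LK GFPhi. Hoxa9 fell by 2.30 in MEP against differences of -0.41, -0.56 and -0.32. Ifitm1 fell in MEP and rose by 1.38 in LK GFPhi. Plac8, Rgs18, Cd9, Itga6 and Itgb3 also fell in MEP and differed in all 3 interactions, and Itgb3 rose in each of the other populations, by 1.67, 2.25 and 0.78.

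Several genes with large changes in the other populations were not called, or changed little, in MEP. Thy1, a surface protein of stem cells and T cells, rose by 2.94, 4.71 and 4.45 in LSK GFPneg-lo, LSK GFPhi and LK GFPhi and read 5.32 to 5.69 on all 6 MEP arrays. Cdh5 rose there by 4.93, 5.32 and 4.71 against 0.53 in MEP. The neutrophil gene Lcn2 (4.75) and the eosinophil gene Prg2 (4.61) rose in LK GFPhi and differed by 0.10 and 0.21 in MEP. Gata1 rose by 2.14 in LK GFPhi and differed by 0.07 in MEP, but this interaction was not called (adjusted p = 0.12). Dntt, the lymphoid DNA polymerase, fell by 3.45 in LK GFPhi and differed by -0.16 in MEP, where it read 6.88 to 7.18.

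**Figure D4:**
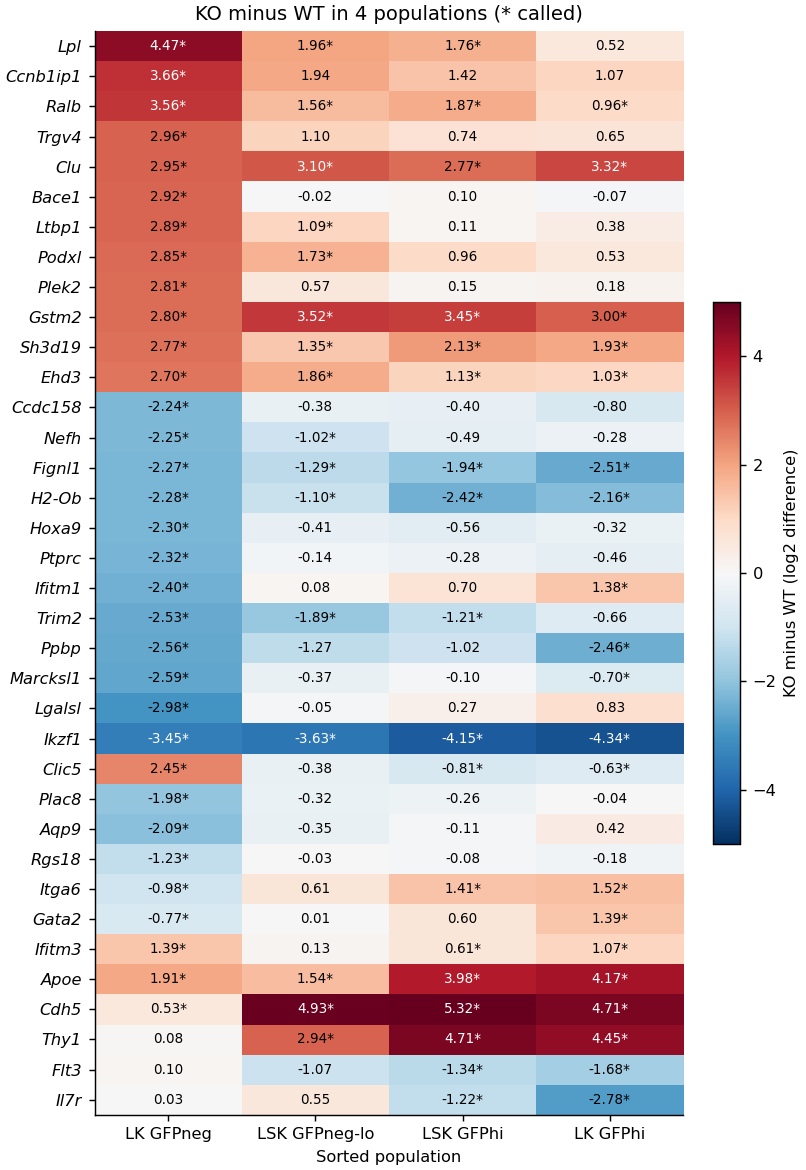
KO minus WT (log2 difference, colour and printed value) in the 4 sorted populations for the 24 largest changes in LK GFPneg and 12 further genes; an asterisk marks a called difference. Clu and Gstm2 are alike in every column, Bace1 and Plek2 are called in LK GFPneg alone, and Cdh5 and Thy1 are large in the other 3 columns.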

How the data were processed

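The authors deposited log2 RMA values of 45101 probe sets on 24 arrays, 3 in each of 8 groups; RMA is named in the submitters' processing notes, and no further normalization was applied in the main analysis. Control probe sets (64) and probe sets with several symbols (932) or none (9160) were left out; 34741 of the other 34945 matched RefSeq by Entrez ID. The probe set with the highest mean was kept for each of 18193 genes. limma 3.58.1 in R 4.3.3 fitted 8 group means to all 24 arrays, with Benjamini-Hochberg adjustment over all genes. The arrays are titled biological replicates; their number limits the precision. In simulated data, KO minus WT recovered 37.3%, 77.6% and 98.5% of genes changed by 0.5, 1 and 2 on the log2 scale. The simulated noise was independent between arrays, without their pairing by number or their differences in Eif2s3y, so these shares need not hold here.

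Same-numbered KO and WT arrays of LK GFPneg had residual correlations of 0.359, 0.593 and 0.569, so the numbers pair them. The main fit left this pairing out, and with the number as a replicate block 888 genes were called in place of 483. The genes named were the 12 largest called changes each way without overlap of groups, passing over clone symbols such as 1700042O10Rik, the 3 most significant members per list, the 4 largest interactions each way, and a panel; other list members are given for context. The members and lists were chosen with earlier results of these data known.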

Additional observations from a re-analysis of the deposited data

Results flagged for a closer look

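The KO effect differed between LK GFPneg and another population, by limma's interaction test with adjusted p under 0.05, for 454 genes against LK GFPhi, 147 against LSK GFPneg-lo and 359 against LSK GFPhi. Groups of 3 arrays are too small for a test of single outlying arrays.

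Against LK GFPhi, the effect in LK GFPneg was lower by most for Lcn2 (-4.65), Prg2 (-4.40), Thy1 (-4.38) and Fgd5 (-4.25). It was higher by most for Lpl (3.95), Dntt (3.29), Clic5 (3.07) and Pkib (3.01). Against LSK GFPneg-lo it was lower for Cdh5 (-4.40), Nrep (-3.56), Tmem204 (-3.52) and Lgalsl (-2.93) and higher for Bace1 (2.94), Clic5 (2.82), Lpl (2.52) and Crim1 (2.40). Against LSK GFPhi it was lower for Cdh5 (-4.79), Tmem204 (-4.67), Thy1 (-4.64) and Mrc1 (-4.11) and higher for Ddx4 (4.06), Jchain (3.59), Clic5 (3.26) and Cmah (2.93). Most of these genes moved in the other population and were not called in LK GFPneg. Lpl, Clic5, Bace1, Crim1, Lgalsl and Cdh5 were called in LK GFPneg. In WT cells Jchain read 6.53 in LK GFPneg against 10.23 in LSK GFPhi, and Dntt 7.10 against 12.89 in LK GFPhi. These 2 genes thus had less room to fall in LK GFPneg.

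Among the largest changes of LK GFPneg, the smallest of the 3 interaction differences was 1.69 for Ralb and 2.82 for Bace1 (both against LSK GFPhi), and 1.80 for Ltbp1 and 2.24 for Plek2 (both against LSK GFPneg-lo). For the falls it was -1.90 for Marcksl1 and -1.86 for Ptprc (both against LK GFPhi), -2.48 for Ifitm1 and -1.23 for Nefh (both against LSK GFPneg-lo) and -1.74 for Hoxa9 (against LSK GFPhi).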

How the results depend on the processing

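The count of genes called in LK GFPneg, 483, was 216 with the 6 arrays alone, 888 with the replicate block, 1210 with array weights, 237 with a 2-fold minimum, 209 with the Eif2s3y covariate and 293 to 468 with 1 array left out. The 32 called list members became 52 with the replicate block, 53 with the block in the 6 arrays alone, 61 with array weights, 16 with the covariate and 20 to 29 with 1 array left out, lowest without WT replicate 3.

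Against LK GFPhi, 454 interactions became 281 in the compared arrays alone, 907 with the replicate block, 922 with genotype and number as a random block and 935 with array weights, and 361 to 499 with 1 array left out. Against LSK GFPneg-lo, 147 became 307 with the block, 280 with the block in the compared arrays alone, 343 with the random block, 95 without the dimmest 40% of genes, 441 with array weights and 92 to 139 with 1 array left out (92 without WT LK GFPneg replicate 3). Against LSK GFPhi, 359 became 599, 584, 624 and 754 under the block, the block in the compared arrays alone, the random block and array weights, and 286 to 346 with 1 array left out; numbers did not pair all these arrays.

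Socs3 turned to -0.0096 without _x_at and _s_at probe sets, where another probe set stands for it. Of the 51 named genes called, 30 were called under every alternative that gave them a value (at most 19), and 21 of the 24 largest changes were (Ccnb1ip1, Podxl and Ppbp were not). Ltbp1, Plek2, Marcksl1 and Ccdc158 had values under 18. All 483 genes kept their call with the replicate block, and it ended no call of a named gene. The cause of the other shifts was not tested.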

Other observations

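The genes below are outside the lists and were named after their values were seen, so they stand as single genes and not as a group (mean ± SD, n = 3 arrays per group). Genes tied to actin went both ways in KO LK GFPneg. Tmsb4x, which encodes the actin-binding peptide thymosin beta 4, read 11.05 ± 0.13 in WT and 9.66 ± 0.19 in KO cells and fell by 1.39 ± 0.12 (SE, limma adjusted p = 4.92e-07), against 0.22, 0.16 and 0.10 in LSK GFPneg-lo, LSK GFPhi and LK GFPhi. Lcp1, the actin bundler L-plastin, fell by 1.91 ± 0.32. Coro1a, coronin of leukocytes, fell by 1.5 ± 0.22. Dock8, an activator of the GTPase Cdc42, fell by 1.18 ± 0.14. Tgfbr2, a TGF-beta receptor chain, read 9.01 ± 0.01 in WT and 7.91 ± 0.11 in KO cells and fell by 1.09 ± 0.15. It rose by 0.57 in LK GFPhi.

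Actn1, an actin cross-linker, rose by 2.01 ± 0.18, and Pls3, an actin bundler related to Lcp1, by 1.55 ± 0.23. Sptbn1, a spectrin of the membrane skeleton, read 9.14 ± 0.14 in WT and 10.52 ± 0.08 in KO cells and rose by 1.38 ± 0.11, against -0.03, -0.15 and -0.07 in the other populations. E2f2, a cell cycle transcription factor known for its part in late erythroid divisions, rose by 1.25 ± 0.15 and fell by 0.55 in LK GFPhi. App, the amyloid precursor protein, a substrate of Bace1, rose by 2.33 ± 0.25. Tmsb4x, Tgfbr2 and Sptbn1 differed from all 3 other populations in the interaction tests.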
